A study of Mus musculus with 36 samples.

Results

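The glutathione, thioredoxin and antioxidant enzymes were described at the RNA level in a brain region enriched for the suprachiasmatic nucleus (SCN), the site of the central circadian clock of mammals, in adult C57BL/6J mice. The members were chosen by gene name: glutathione S-transferases, glutathione peroxidases, peroxiredoxins, thioredoxins and their reductases, superoxide dismutases, and 11 single genes of glutathione synthesis, NADPH supply and the NRF2 response. Of 24883 rows shared by the deposited tables, 56 carried such a name, and the 48 with a mean level of at least 1 over all libraries are the members. The other 8 rows averaged 0.00379 to 0.594. They are Gpx5, Prdx6b, Gstt4, Gsta1, Gpx6, Gpx2-ps1, Gpx2 and Gsta2, the last of which was just below the limit at 0.594, while Gsto2 was just above it at 1.63.

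One group of mice had been on a high-fat diet for 10 weeks and the other on normal chow for the same time. Each diet had 18 libraries, 3 at each of 6 zeitgeber times (ZT, hours of the light schedule) of 0, 4, 8, 12, 16 and 20, per the file headers. Tissue came from fresh brain, was snap-frozen, and was sequenced as stranded mRNA libraries. Whether replicates were separate mice is not stated in the labels, so the p-values measure only the spread between these libraries, which may be technical. The values are FPKM (fragments per kilobase of transcript and sequencing depth), a level per length, rescaled so that each library sums to 1000000. The depth in reads is not known from FPKM. Each diet was deposited as its own table, so an effect of diet and an effect of the table cannot be told apart. In bulk tissue, fewer cells of a type and less RNA per cell cannot be told apart either.

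Glutathione is a small peptide of glutamate, cysteine and glycine that cells use to reduce peroxides and to conjugate reactive molecules. The peroxiredoxins and thioredoxins form a parallel system that removes hydrogen peroxide, and both systems draw their reducing power from NADPH. Many of the genes are targets of NRF2 (encoded by Nfe2l2), a transcription factor that is released from its inhibitor KEAP1 under oxidative stress and binds antioxidant response elements. In the brain much of the NRF2 activity and of the glutathione supply is ascribed to astrocytes. Peroxiredoxins are also known for daily cycles of oxidation of the protein, which RNA levels do not measure.

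The letters TGACNNNGC, a core of the antioxidant response element, were searched on both strands in the 250 bases before each RefSeq transcript start (build GRCm38.p6). Promoter windows were found for 41 of the 48 members, 55 windows in all. The core was present in 9 of these windows, 1 for each of 9 members, which is 16.4% of the member windows and compares with 10.2% of all 32851 windows of the same length. The 9 matches are printed 5′ to 3′ because they mark where the searched windows of these genes hold the core, with its fixed letters in capitals and 8 flanking bases on each side. A match is a description of letters and not evidence of binding. In Prdx1 the match takes in TGACTCA, the letters of an AP-1 motif. None of the 9 windows also held the E-box CACGTG, which was found only in a window of Prdx4 among the members and in 6.02% of all windows.
G6pdx: gtgtgcttTGACtgaGCtgacccgc
Gclm: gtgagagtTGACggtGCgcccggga
Gsta3: ctcaggcaTGACattGCatttttct
Gstm5: ccgcccacTGACcacGCggagggcg
Gstm7: tgaagaccTGACaaaGCgaagccaa
Nfe2l2: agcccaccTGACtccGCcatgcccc
Prdx1: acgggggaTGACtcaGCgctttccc
Sod1: cctgagtcTGACcacGCccaccttg
Txnrd1: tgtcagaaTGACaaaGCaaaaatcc
These stretches lie on GRCm38.p6 at chrX:74428921-74428945 (G6pdx, plus strand), chr3:122245415-122245439 (Gclm, minus strand), chr1:21240456-21240480 (Gsta3, plus strand), chr3:107895804-107895828 (Gstm5, plus strand), chr3:107931727-107931751 (Gstm7, minus strand), chr2:75704887-75704911 (Nfe2l2, minus strand), chr4:116685458-116685482 (Prdx1, minus strand), chr16:90220698-90220722 (Sod1, minus strand) and chr10:82859106-82859130 (Txnrd1, minus strand). They come from an NADPH-producing enzyme (G6pdx), a subunit of the ligase that starts glutathione synthesis (Gclm), 3 glutathione S-transferases, NRF2 itself, a peroxiredoxin, a superoxide dismutase and a thioredoxin reductase. By GENCODE M21 gene spans, the stretches of G6pdx, Gstm7 and Txnrd1 lie inside the gene, and that of Gstm5 spans its start. Those windows precede a RefSeq start inside the gene span.

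In level, the set was led by enzymes that act on superoxide and peroxides. Sod1, the cytosolic copper and zinc superoxide dismutase, had the highest mean of the 48 at 969.9 rescaled FPKM over 36 libraries. It was followed by Gpx4, the peroxidase that reduces lipid hydroperoxides in membranes, at 701, Gstm1 at 565, Prdx2 at 531, Gstp1 at 529 and Prdx5 at 524. Summed by role, the 18 glutathione S-transferases reached 2290.0, the 6 peroxiredoxins with sulfiredoxin 1817, the 5 glutathione peroxidases 1169, the superoxide dismutases with catalase 1144, and the thioredoxins with their reductases 419. The 4 genes of glutathione synthesis and recycling summed to 124, the 2 NADPH enzymes to 94.1, and Hmox1 with Nqo1 to 19.4. Nfe2l2 had a mean of 21.1.

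The members differed in how much they varied between libraries. Srxn1, which restores overoxidised peroxiredoxins, ran from 0.902 to 1.18 times its median over the 36 libraries, and Gsr, the reductase that regenerates glutathione, from 0.876 to 1.202 times. Gsta3, an alpha-class transferase abundant in liver, was in its highest library 39.97 times its median, Gstm2 3.15 times, Gstm3 2.81 times, Sod3 2.72 times and Cat 2.33 times. Neighbouring genes of the same class add a further limit to single transferases. The 7 mu-class genes lie side by side on chromosome 3, from Gstm5 at chr3:107895821-107898686 to Gstm4 at chr3:108040408-108044894 (GRCm38). Gstp1 at chr19:4035407-4037985 and Gstp2 at chr19:4040285-4046023 are neighbours on chromosome 19. How reads were split between such neighbours is not given in the sources used here, and how alike their sequences are was not examined. The split of signal among the mu-class and among the pi-class genes is therefore uncertain. The same holds for genes whose exons overlap another gene, namely Gss, G6pdx, Prdx2, Prdx5, Txnrd2, Gstm5 and Gstz1 with a gene on the opposite strand, and Gclm and Gstt3 with one on the same strand.

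**Figure D1:**
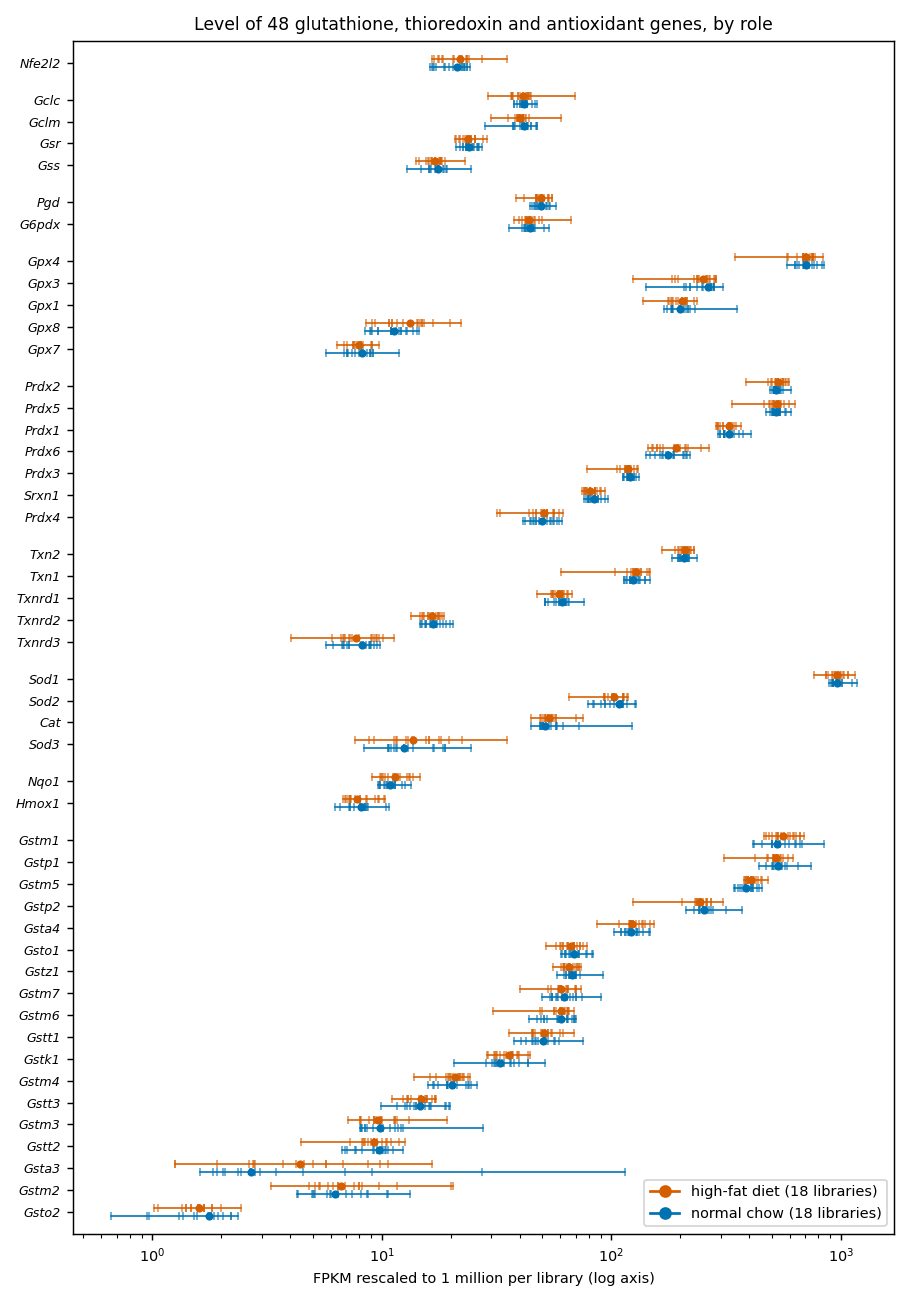
Level of each of the 48 genes, ordered by role and by mean, as FPKM rescaled to 1000000 per library on a log axis. Ticks are single libraries, bars span the lowest to the highest library, and large points are medians of 18 libraries under high-fat diet (orange, upper) and of 18 under normal chow (blue, lower); the medians of both diets lie close together for nearly all genes.

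Some libraries stood apart, among the members and among all rows. All 11 genes of an SCN marker list had a mean of at least 1, with a summed level of 326 to 4485 under high-fat diet, against 596 to 2876 under normal chow. This sum is mostly Avp, with a median of 1579 against a median sum of 1695 over all libraries. The next highest median of the list was 31.9 (Rgs16), so the sum says little about the other SCN markers. The summed level of 11 liver genes was 89.9 times the median of all libraries in normal chow ZT 0 replicate 1, 20.3 times in normal chow ZT 4 replicate 1 and 14.9 times in high-fat diet ZT 0 replicate 3. All 11 were found, and their sums ran from 19.2 to 855 under high-fat diet, against 19.5 to 5155 under normal chow. Normal chow ZT 0 replicate 1 held the highest value for 14 of the 48 members, among them Gsta3 at 115, Cat at 124, Gpx1 at 354 and Gstm3 at 27.6. In this library 11 members were over 1.3 times their median (5.79% of all rows) and 0 under their median divided by 1.3 (15.8%). It was also highest for the blood genes (7782, 2.83 times the median) and the choroid plexus genes (393, 6.64 times). The ependymal and tanycyte genes were highest there too (398, 1.69 times). The 5 blood genes found had a median sum of 3401 under high-fat diet, against 2340 under normal chow. The 6 striatum genes were 7.34 times their median in high-fat diet ZT 16 replicate 3, which was lowest for 12 members, and 5.71 times in normal chow ZT 12 replicate 3. High-fat diet ZT 16 replicate 3 had 2 members over 1.3 times their median (15.2% of all rows) and 10 under their median divided by 1.3 (13.6%). The 10 genes of meninges and fibroblasts were highest in high-fat diet ZT 0 replicate 3, at 4.42 times the median. All 10 were found, and their sums ran from 56.9 to 573 under high-fat diet, against 54.0 to 316 under normal chow. No gene of these lists was at 0 in all libraries. High-fat diet ZT 8 replicate 2 was lowest for 12 members and highest for 6, had the lowest SCN marker sum (326), and held a ribosomal protein sum of 54376, against a median of 94179 over all libraries. It had 8 members over 1.3 times their median (40.1% of all rows) and 12 under their median divided by 1.3 (12.9%).

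**Figure D2:**
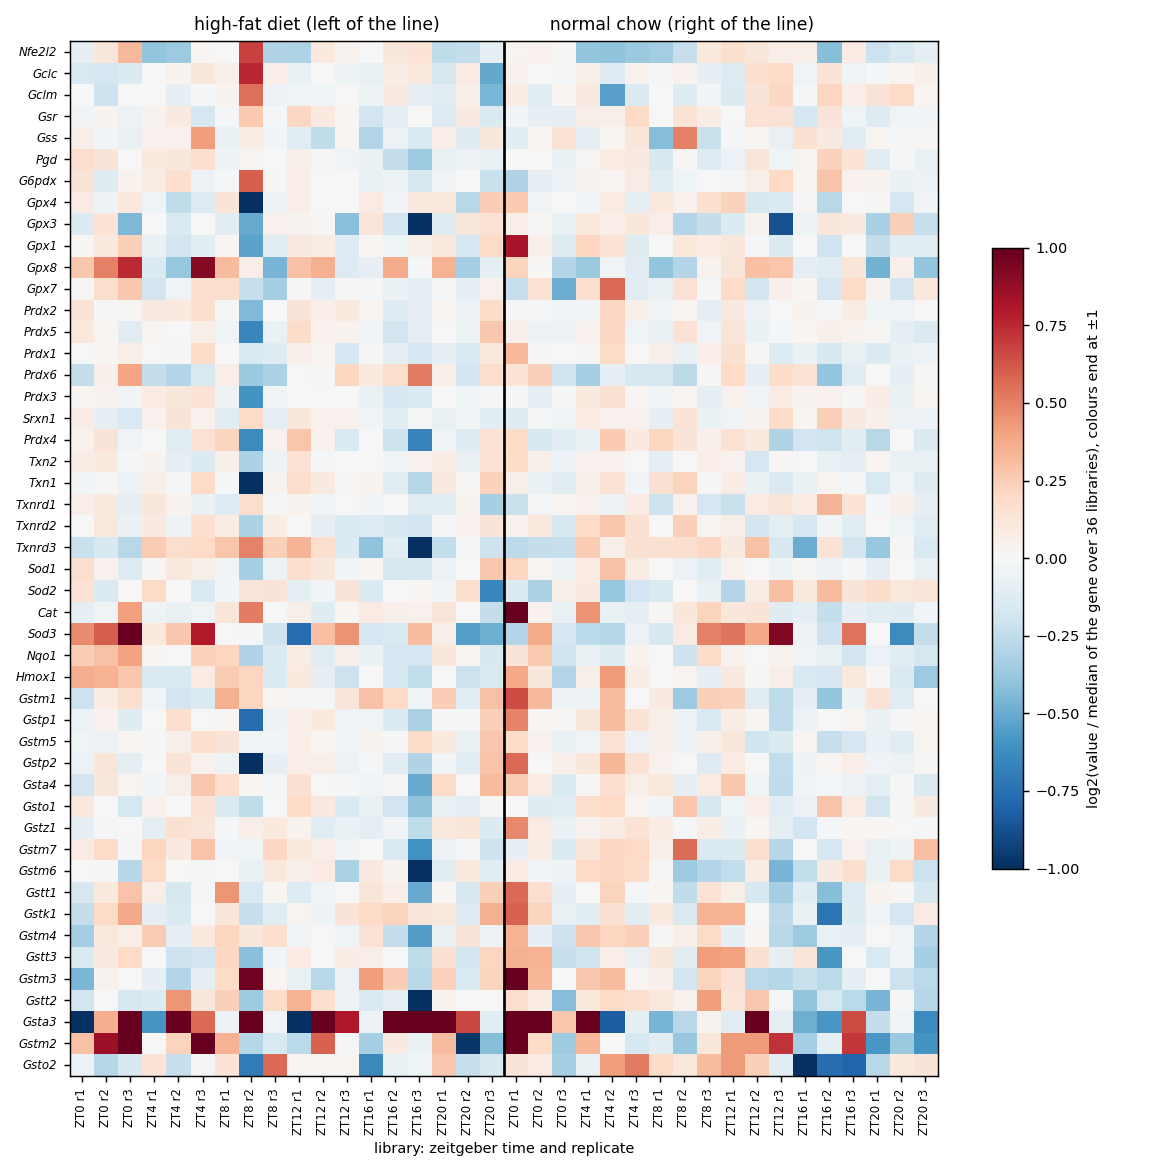
Map of the 48 genes (rows, by role) in the 36 libraries (columns, high-fat diet on the left, normal chow on the right, by zeitgeber time and replicate). Colour is the log2 ratio of a library's value to the gene's median over all libraries, cut at ±1; single columns stand out at high-fat diet ZT 8 replicate 2, high-fat diet ZT 16 replicate 3 and normal chow ZT 0 replicate 1.

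The first comparison was that of the diets over the whole day. No difference of the 48 antioxidant genes between high-fat diet and normal chow passed the test, and for most the limits of the difference were narrow. With limma over all 15173 rows tested, 0 of 48 members were called at an adjusted p under 0.05, against 0.0132% of all rows (2 of 15173). At an unadjusted p under 0.05 there was 1 of 48 members, Gpx8, against 2.56% of all rows. The 95% limits of the difference lay within 1.2-fold in either direction on the log2(value + 1) scale for 44 of the 48 members, the exceptions being Gpx8, Sod3, Gsta3 and Gstm2. The median log2 difference of the members was -0.019, and 32 of the 48 were negative, against a median of -0.00051 for all rows. That count of negative members was 34 with median-of-ratios scaling, 36 with the values as deposited and 26 without the striatum-rich libraries.

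The regulator and its usual targets were at similar levels. Nfe2l2 had a lowest, median and highest level of 16.6, 21.9 and 35.1 under high-fat diet, against 16.2, 21.3 and 24.4 under normal chow, a log2 difference of 0.077 ± 0.067 (SE). Gclc, the catalytic subunit of the rate-limiting enzyme of glutathione synthesis, had 29.1, 41.3 and 69.8 under high-fat diet, against 37.8, 41.6 and 47.3 under normal chow, and its partner Gclm, the modifier subunit, had 29.9, 40.2 and 60.2 under high-fat diet, against 28.1, 41.8 and 47.6 under normal chow. The ranges of both diets overlapped for all 3, and the highest Nfe2l2, Gclc and Gclm values all came from high-fat diet ZT 8 replicate 2.

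Hmox1, which breaks down heme, averaged 8.18 ± 1.204 with high-fat diet, against 8.17 ± 1.15 with normal chow (SD, n = 18 each). Nqo1, a quinone reductase, averaged 11.5 ± 1.55 with high-fat diet, against 10.97 ± 1.03 with normal chow (SD, n = 18 each). Srxn1 averaged 82.2 ± 5.59 with high-fat diet, against 84.1 ± 5.69 with normal chow (SD, n = 18 each). Their log2 differences were -0.00039 ± 0.055, 0.058 ± 0.045 and -0.032 ± 0.031 in that order (SE), each smaller than the spread between libraries.

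For the peroxide- and superoxide-removing enzymes the limits were narrow too. The 95% limits of the log2 difference were -0.093 to 0.062 for Sod1 and -0.10 to 0.041 for Prdx1, a cytosolic peroxiredoxin. They were -0.18 to 0.083 for Gpx1, the cytosolic glutathione peroxidase, and -0.20 to 0.10 for Gpx4. For the mitochondrial dismutase Sod2 they were -0.15 to 0.12, and for catalase (Cat), which splits hydrogen peroxide in peroxisomes, -0.20 to 0.14. The difference of Cat was -0.029 ± 0.082 (SE) in all libraries and 0.048 without the 3 liver-rich ones. The part of the liver genes in that change was not tested.

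Among the thioredoxin genes and the transferases the differences were as small. Txn1, cytosolic thioredoxin, had a log2 difference of -0.030 ± 0.071, and Txnrd1, the reductase that recharges it, one of -0.020 ± 0.043 (SE). Prdx6, a peroxiredoxin that uses glutathione, had 0.050 ± 0.063, Gstm1 0.040 ± 0.073 and Gstp1 -0.090 ± 0.058 (SE). All of these had an adjusted p of 1 in limma.

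Gpx8, a peroxidase of the endoplasmic reticulum, was the only member with an unadjusted p under 0.05. Its lowest, median and highest levels were 8.54, 13.3 and 22.2 under high-fat diet, against 8.48, 11.3 and 14.5 under normal chow. The ranges overlapped, and the 3 highest values were all from high-fat diet libraries (ZT 4 replicate 3 at 22.2, ZT 0 replicate 3 at 19.8 and ZT 0 replicate 2 at 16.7). The log2 difference was 0.21 ± 0.091 (SE), with an unadjusted p of 0.0309 and an adjusted p of 1 in limma. Those 3 libraries were also the highest in high-fat diet for the meninges and fibroblast genes, with sums of 391, 573 and 316 against a median of 129.7 over all libraries. Other lists stood out there too. The endothelial and mural genes summed to 489 in ZT 4 replicate 3, 590 in ZT 0 replicate 3 and 371 in ZT 0 replicate 2, against a median of 343. ZT 0 replicate 3 was also highest for the oligodendrocyte genes (9019, against a median of 5718). The part of each list in the Gpx8 difference was not tested. Without the 5 meninges-rich libraries the difference of Gpx8 was 0.12, with an unadjusted p of 0.155 in limma.

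**Figure D3:**
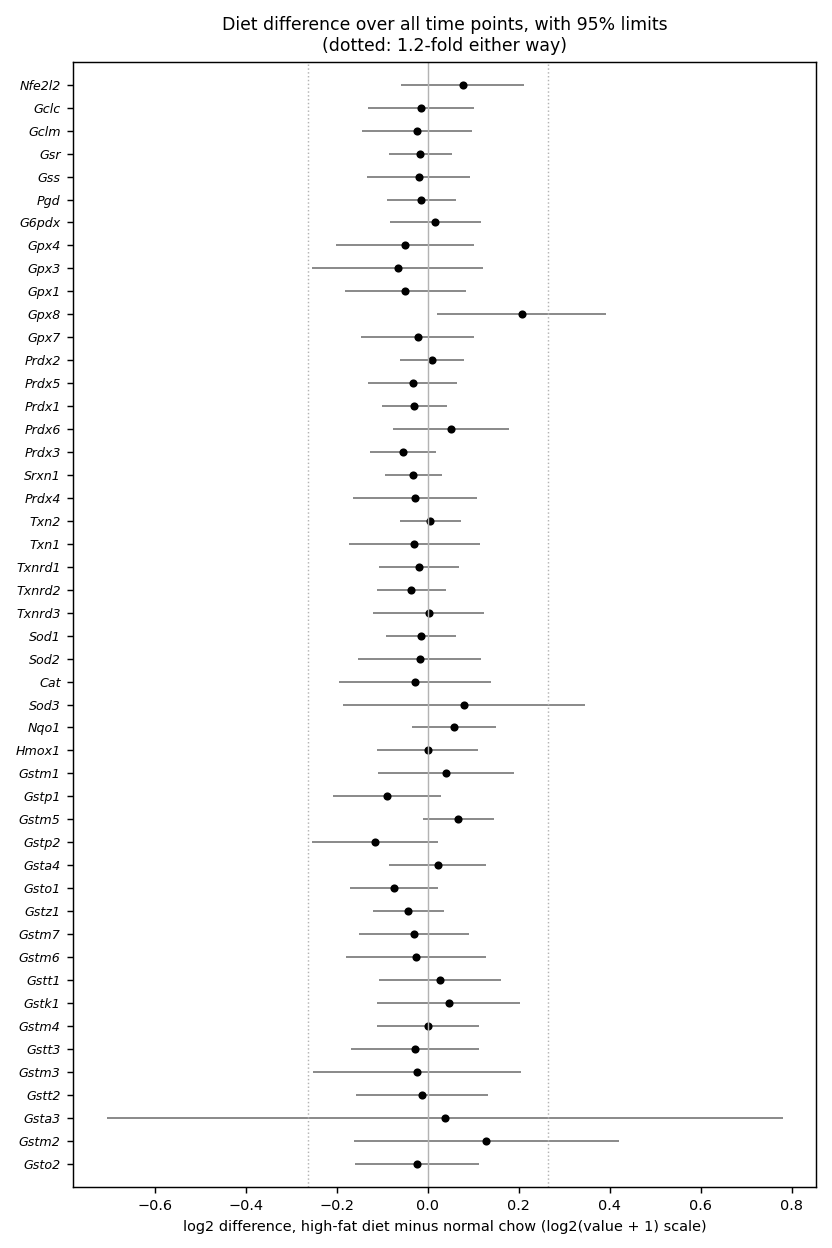
Log2 difference (high-fat diet minus normal chow, on the log2(value + 1) scale) over all time points for each of the 48 genes, with 95% limits from limma over 36 libraries. The dotted lines mark 1.2-fold in either direction; the limits of 44 genes lie between them, and those of Gpx8, Sod3, Gsta3 and Gstm2 reach beyond.

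The second comparison asked at which time of day the diets differed. No member was called at any of the 6 time points, where the share of all rows called was 0% at ZT 0, 4, 8, 16 and 20 and 0.00659% at ZT 12. At an unadjusted p under 0.05 limma gave 6 of 48 members at ZT 0 (3.9% of all rows), 0 at ZT 4 (1.5%), 7 at ZT 8 (16.1%), 1 at ZT 12 (0.975%), 8 at ZT 16 (10.7%) and 0 at ZT 20 (3.99%). The groups of 3 libraries did not overlap for 4 members at ZT 0 (6.37% of all rows), 4 at ZT 4 (7.33%), 2 at ZT 8 (17.2%), 0 at ZT 12 (4.54%), 12 at ZT 16 (17.4%) and 3 at ZT 20 (8.36%). The 12 at ZT 16, 25% of the members, were Cat, Gstk1, Gstm1 and Gsto2, higher under high-fat diet, and G6pdx, Pgd, Prdx3, Prdx5, Srxn1, Txnrd1, Sod2 and Gsto1, lower. At the other times they were Pgd, Gpx8 and Sod3 (higher) and Gclc (lower) at ZT 0, Pgd and Sod3 (higher) and Gpx3 and Gstm3 (lower) at ZT 4, Gclc and Txnrd3 (higher) at ZT 8, and Txn1, Gsta4 and Gstt2 (higher) at ZT 20.

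At ZT 4, 8, 12 and 20 the median of the members had the opposite sign to that of all rows. At ZT 4 the median log2 difference of the members was -0.040, with 20 of 48 positive, against 0.042 for all rows, of which 63.9% were positive. At ZT 12 the median of the members was 0.0051, with 26 of 48 positive, against -0.025 for all rows, of which 41.2% were positive. At ZT 8 the median log2 difference of the members was -0.016, with 22 of 48 positive, against 0.12 for all rows, of which 70.8% were positive. At ZT 20 the median of the members was 0.072, with 33 of 48 positive, against -0.064 for all rows, of which 35.4% were positive. Single libraries stood apart at ZT 8 and ZT 20: 40.1% of all rows were over 1.3 times their median in high-fat diet ZT 8 replicate 2, and 29.3% were under their median divided by 1.3 in high-fat diet ZT 20 replicate 3. Their part in the medians of those times was not tested, and the members share all libraries, so the counts are a description.

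Pgd (chr4:149149991-149166771, minus strand, GRCm38), the second NADPH-producing enzyme of the pentose phosphate pathway, came closest to a call. At ZT 16 its levels were 47.1, 41.7 and 38.4 under high-fat diet, against 50.4, 57.8 and 54.3 under normal chow. All 3 high-fat diet libraries were below all 3 normal chow libraries. The log2 difference was -0.35 ± 0.067 (SE), with an unadjusted p of 2.01e-05 and an adjusted p of 0.152 in limma. At ZT 0 the order was the opposite, at 55.4, 53.9 and 49.4 under high-fat diet, against 49.2, 49.3 and 47.1 under normal chow, and at ZT 4 the levels were 53.0, 53.3 and 55.4 under high-fat diet, against 49.8, 52.3 and 52.6 under normal chow. In both cases every high-fat diet library was above every normal chow library. Pgd also had the smallest p of the members for a diet difference that varies over the day, 5.05e-04 unadjusted and 0.720 adjusted in limma.

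The ZT 16 difference of Pgd depended on single libraries. Without high-fat diet ZT 16 replicate 1 it was -0.42 with an adjusted p of 0.0258 in limma, and without the striatum-rich replicate 3, the lowest of the group, it was -0.28 with an adjusted p of 0.872. These were the ends of its range with libraries left out singly, but the largest adjusted p came without a different library. Other scalings, pseudocounts, filters, the replicate block and leaving out sets of libraries gave adjusted p-values of 0.0539 to 0.862. G6pdx, the enzyme that opens the same pathway, was at 42.0, 42.6 and 39.6 under high-fat diet, against 45.0, 53.9 and 45.6 under normal chow at ZT 16. Its groups did not overlap either, with a log2 difference of -0.21 ± 0.11 (SE) and an adjusted p of 0.503 in limma.

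The other members with small p-values at ZT 16 had differences of both signs. Gsto1, an omega-class transferase, was at 65.0, 60.0 and 51.9 under high-fat diet, against 65.7, 83.3 and 72.6 under normal chow, a log2 difference of -0.32 ± 0.11 (SE). Gstk1, the kappa-class transferase of mitochondria and peroxisomes, was at 39.0, 39.8 and 37.1 under high-fat diet, against 32.6, 20.6 and 31.3 under normal chow, a difference of 0.47 ± 0.18. Prdx6 was at 200.5, 212 and 267 under high-fat diet, against 207, 143 and 174 under normal chow, a difference of 0.38 ± 0.15. Gsto1 and Gstk1 did not overlap between diets and Prdx6 did, and the adjusted p-values in limma were 0.305, 0.334 and 0.351. The remaining 4 were Gsto2 (0.37), Txnrd1 (-0.23), Srxn1 (-0.17) and Gstm5 (0.19), given as log2 differences. Normal chow ZT 16 replicate 2 stood apart in these groups: over all 36 libraries it was highest for 5 members and lowest for 7, with Gstk1 and Prdx6 among the 7. It had 0 members over 1.3 times their median (4.51% of all rows) and 8 under their median divided by 1.3 (8.01%). Without it the ZT 16 differences were 0.27 for Gstk1, 0.24 for Prdx6 and -0.23 for Gsto1, with an unadjusted p above 0.05 in limma for all 3. Over the 6 time points the count of member differences with an unadjusted p under 0.05 was 22 with all libraries and 14 without this one. The matching count over all rows without this library was not determined, so the fall cannot be read as particular to the members.

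At ZT 8 the small p-values rested on high-fat diet replicate 2. Txn1 was at 125, 60.7 and 129.9 under high-fat diet, against 141, 148 and 125 under normal chow, a log2 difference of -0.46 ± 0.16 (SE). Gpx4 was at 774, 345 and 684 under high-fat diet, against 762, 729 and 788 under normal chow, a difference of -0.42 ± 0.18. Prdx5, a peroxiredoxin of mitochondria, peroxisomes and cytosol, was at 511, 335 and 502 under high-fat diet, against 501, 580.0 and 513 under normal chow, a difference of -0.26 ± 0.11. In all 3 genes replicate 2 was far below the other 5 libraries of that time. Gclc went the other way, at 42.8, 69.8 and 43.2 under high-fat diet, against 41.0, 42.5 and 39.0 under normal chow, a difference of 0.30 ± 0.13 with no overlap between diets and replicate 2 the highest.

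The adjusted p-values of these 4 in limma were 0.273 to 0.280. Without replicate 2 the log2 differences were -0.11 for Txn1, -0.061 for Gpx4, -0.066 for Prdx5 and 0.075 for Gclc. Without replicate 1, Txn1 and Gpx4 were called, with adjusted p-values of 0.0352 and 0.0370 in limma, together with 1100 rows in all over the time points, against 1 row with all libraries. Replicate 2 is the library with the low ribosomal protein sum, and the part of that in these results was not tested. The other members with an unadjusted p under 0.05 at ZT 8 were Prdx3 (-0.19), G6pdx (0.24) and Gstp2 (-0.35), as log2 differences.

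At ZT 0 the member with the smallest p was Sod3, the extracellular superoxide dismutase. Its levels were 18.1, 19.7 and 35.3 under high-fat diet, against 10.6, 16.8 and 11.5 under normal chow. All 3 high-fat diet libraries were above all 3 normal chow libraries, with a log2 difference of 0.82 ± 0.27 (SE) and an adjusted p of 0.789 in limma. In the same libraries the meninges and fibroblast genes summed to 199.6, 316 and 573 under high-fat diet, against 85, 151 and 134 under normal chow. At ZT 12 Sod3 was at 7.68, 16.0 and 17.7 under high-fat diet, against 18.8, 16.9 and 24.6 under normal chow, a difference of -0.57 ± 0.27, and there the marker sums were 84, 186 and 165 under high-fat diet, against 225, 217 and 316 under normal chow. The Sod3 groups overlapped at ZT 12, and without high-fat diet ZT 12 replicate 1, the library at 7.68, the difference there was -0.23. At both times the diet with the higher Sod3 mean also had the higher mean marker sum, and the part of the marker genes in this was not tested. Without high-fat diet ZT 0 replicate 3, the highest library for Sod3, the ZT 0 difference was 0.53. Without the meninges-rich libraries it was 0.47 and the p for a diet difference that varies over the day was 0.233 unadjusted in limma, against 0.0118 in all libraries.

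Gstm3 and Gpx7 were the other named members at ZT 0. Gstm3, a mu-class transferase, was at 7.17, 10.03 and 9.82 under high-fat diet, against 27.6, 12.3 and 9.86 under normal chow, a log2 difference of -0.70 ± 0.24 (SE). The highest value belonged to the normal chow library that was highest for the liver, blood and choroid plexus genes, and without it the difference was -0.28. Gpx7, a second peroxidase of the endoplasmic reticulum, was at 8.09, 9.09 and 9.70 under high-fat diet, against 6.85, 8.90 and 5.71 under normal chow, a difference of 0.30 ± 0.14. Without normal chow ZT 0 replicate 3, the lowest of these, the Gpx7 difference was 0.17. Gpx8 was at 14.2, 16.7 and 19.8 under high-fat diet, against 13.7, 11.9 and 9.59 under normal chow, a difference of 0.50 ± 0.23, with no overlap between diets. The last members with an unadjusted p under 0.05 at that time were Nqo1 (0.23) and Gstz1 (-0.20). The adjusted p-values of these members in limma were 0.862 to 1. Gsta3 had a larger difference of -1.60 ± 0.88 (SE) with an unadjusted p of 0.0797 in limma, at 1.26, 3.70 and 16.6 under high-fat diet, against 115, 9.09 and 3.48 under normal chow.

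Over the 5 diet by time point terms, 0 of 48 members were called in limma, against 0% of all rows. At an unadjusted p under 0.05 there were 3 of 48 members, Pgd, Sod3 and Gstm3, against 5.09% of all rows.

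The third comparison was that of the times of day. A 24 h rhythm was called for a single member, Txnrd3, and only with both diets in the same fit. Txnrd3 (chr6:89643988-89675529, plus strand, GRCm38) encodes thioredoxin-glutathione reductase, a selenoenzyme that joins a glutaredoxin domain to a thioredoxin reductase and is best known from testis. With a cosine and a sine of period 24 h in limma, 1 of 48 members was called over both diets, against 2.18% of all rows (331 of 15173). Under high-fat diet alone it was 0 of 48, against 0.0728% of all rows, and under normal chow alone 0 of 48, against 0.845% of all rows. At an unadjusted p under 0.05 the counts were 12 of 48 over both diets (13.1% of all rows), 7 with high-fat diet alone (8.64%) and 13 with chow alone (18.2%).

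By group mean Txnrd3 was high at ZT 4 and ZT 8 and low at ZT 0, ZT 16 and ZT 20 in both diets. Its mean over the 6 libraries of a time was lowest at ZT 16 (6.52), against 6.84 at ZT 0 and 7.19 at ZT 20. At ZT 0 its levels were 6.87, 7.20 and 6.63 under high-fat diet, against 6.69, 6.81 and 6.85 under normal chow. At ZT 4 they were 9.59, 9.08 and 9.22 under high-fat diet, against 9.58, 8.30 and 8.93 under normal chow. At ZT 8 they were 9.74, 11.4 and 9.45 under high-fat diet, against 8.91, 8.97 and 9.26 under normal chow. Each of the 12 libraries of ZT 4 and ZT 8 was thus above each of the ZT 0 libraries. At ZT 12 the levels were 10.2, 9.01 and 7.30 under high-fat diet, against 8.55, 9.86 and 7.18 under normal chow. At ZT 16 they were 6.08, 7.45 and 4.03 under high-fat diet, against 5.70, 8.84 and 7.05 under normal chow. At ZT 20 they were 6.76, 7.97 and 6.95 under high-fat diet, against 6.16, 8.09 and 7.22 under normal chow. The ZT 20 libraries were below all those of ZT 4 and ZT 8, while ZT 12 and ZT 16 spread more widely and ZT 16 held the lowest library, the striatum-rich replicate 3 of high-fat diet.

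The fitted peak of Txnrd3 over both diets was at ZT 7.29 ± 0.673 h (SE), with a peak-to-trough fold of 1.42 on the log2(value + 1) scale, an unadjusted p of 1.11e-05 and an adjusted p of 0.00254 in limma. Under high-fat diet alone the fold was 1.55 with a peak at ZT 6.88 ± 0.868 h and an adjusted p of 0.288. Under normal chow alone the fold was 1.32 with a peak at ZT 7.94 ± 1.04 h and an adjusted p of 0.140. The test of a difference in rhythm between diets gave an unadjusted p of 0.328 and an adjusted p of 0.613 in limma. The call over both diets was made under each alternative tried, with adjusted p-values of 0.000373 to 0.0134 and, without single libraries, folds of 1.38 to 1.46.

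The promoter of Txnrd3 is shown because it is the member with a called rhythm, as the 250 bases before the RefSeq start at chr6:89643738-89643987 of GRCm38.p6 on the plus strand. It is 58% G and C, against a median of 52.4% over all windows. It held no E-box (CACGTG), no D-box (TTATGTAA, present in 0.819% of all windows) and no TGACNNNGC on either strand, so no letters are in capitals, and that says only that these letters are not in this window.
Txnrd3: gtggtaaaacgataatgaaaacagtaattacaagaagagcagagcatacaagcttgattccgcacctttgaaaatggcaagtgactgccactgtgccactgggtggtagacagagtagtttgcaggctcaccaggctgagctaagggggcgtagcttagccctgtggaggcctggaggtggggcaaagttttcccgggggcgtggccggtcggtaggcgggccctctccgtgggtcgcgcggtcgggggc

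**Figure D4:**
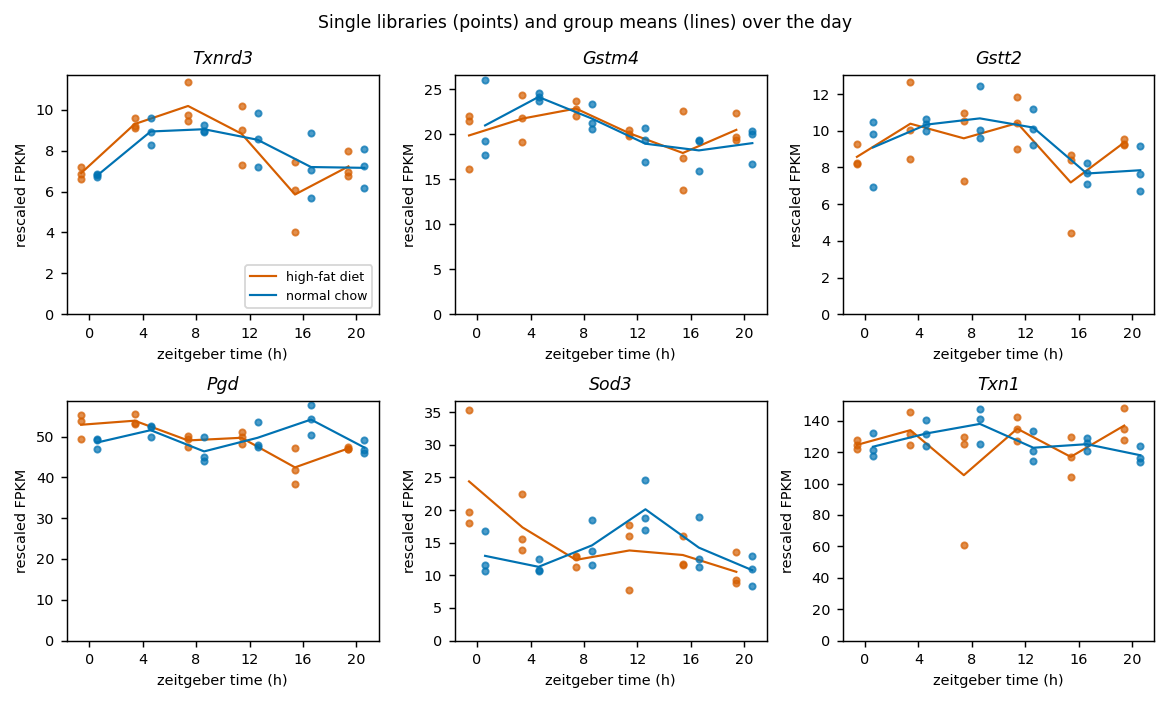
Levels of 6 genes over zeitgeber time as rescaled FPKM, with single libraries as points and group means of 3 libraries as lines, under high-fat diet (orange) and normal chow (blue). Txnrd3 is high at ZT 4 and ZT 8 in both diets, Pgd parts at ZT 16, Sod3 is highest at ZT 0 under high-fat diet, and the low Txn1 mean at ZT 8 comes from 1 library at 60.7.

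The next members in order of p were Gstm4, Txnrd2 and Gstt2, none of which was called. Gstm4, a mu-class transferase, had a fitted fold of 1.24 with a peak at ZT 4.88 ± 0.953 h and an adjusted p of 0.0569 in limma. Its means at ZT 4 were 21.7 ± 2.61 under high-fat diet, against 24.1 ± 0.409 under normal chow, and at ZT 16 17.9 ± 4.39 under high-fat diet, against 18.2 ± 1.94 under normal chow (SD, n = 3 each). Txnrd2, the mitochondrial thioredoxin reductase, had a fold of 1.15 with a peak at ZT 3.34 ± 0.997 h and an adjusted p of 0.0734. Gstt2, a theta-class transferase, had a fold of 1.303 with a peak at ZT 6.56 ± 1.05 h and an adjusted p of 0.103. It also had the smallest adjusted p under normal chow alone, 0.0932, with a fold of 1.38.

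These 3 were called only when single libraries were left out. Gstm4 was called without normal chow ZT 0 replicate 3 and without each of high-fat diet ZT 0 replicate 1, ZT 4 replicate 2, ZT 16 replicate 1 and ZT 20 replicate 2, with adjusted p-values down to 0.0236 in limma. Txnrd2 was called without normal chow ZT 0 replicate 3, high-fat diet ZT 8 replicate 2 or high-fat diet ZT 20 replicate 3, with adjusted p-values down to 0.0114. Gstt2 was called without high-fat diet ZT 8 replicate 2, with an adjusted p of 0.0278. The count of called members was therefore 1 to 3 when libraries were left out singly, against 265 to 451 of all rows (331 with all libraries).

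The 12 members with an unadjusted p under 0.05 over both diets had fitted peaks mostly before ZT 6, a share that depended on the libraries included. Fitted peaks lay between ZT 0 and ZT 6 for 8 of them (Gstm4, Txnrd2, Gstm7, Gstz1, Prdx1, Gsto2, Hmox1 and Gstt1) and between ZT 6 and ZT 12 for 3 (Txnrd3, Gstt2 and Gsr). Prdx6 alone peaked after ZT 12, at ZT 17.2 ± 1.33 h, and none lay between ZT 18 and ZT 24. For all rows with an unadjusted p under 0.05 the counts in the same 6 h spans of the day, from ZT 0 on, were 562, 496, 470 and 458. Besides Txnrd3 the folds of the 12 were 1.105 to 1.303. All 3 liver-rich libraries were taken at ZT 0 or ZT 4, and 1 of them, normal chow ZT 0 replicate 1, was the highest library for Gstm4, Gstz1, Prdx1 and Gstt1. Without these 3 libraries 10 members had an unadjusted p under 0.05, of which 5 peaked between ZT 0 and ZT 6 (Gstm4, Gstm7, Gsto2, Gstz1 and Txnrd2) and 4 between ZT 6 and ZT 12. All rows then gave 850, 398, 453 and 502 in the 4 spans. Without the striatum-rich libraries it was 7 members, 4 of them between ZT 0 and ZT 6 and 3 between ZT 6 and ZT 12. All rows then gave 1720, with 473, 437, 322 and 488 in the 4 spans. Leaving out the meninges-rich ones gave 8 members, 4 between ZT 0 and ZT 6 and 3 between ZT 6 and ZT 12. For all rows it was 1528, with 433, 392, 295 and 408 in the 4 spans, against 1986 with all libraries. Libraries are shared by all genes, so the peak times of the members are not independent of each other.

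In single diets the named members were partly others. Under high-fat diet Pgd peaked at ZT 3.76 ± 0.944 h with a fold of 1.21, Gstm7 at ZT 4.57 ± 1.103 h with 1.28 and Prdx6 at ZT 17.1 ± 1.19 h with 1.34. Their adjusted p-values in limma were 0.350, 0.466 and 0.505. Under normal chow Gstm4 peaked at ZT 4.37 ± 1.01 h with a fold of 1.29 and Txnrd2 at ZT 4.55 ± 1.03 h with 1.202, with adjusted p-values of 0.130 and 0.135.

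**Figure D5:**
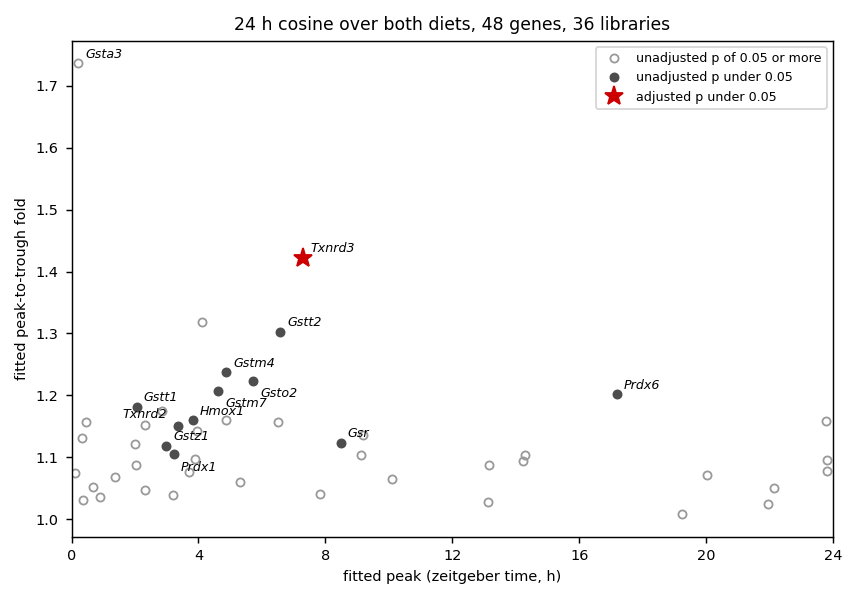
Fitted peak time (zeitgeber time, h) against fitted peak-to-trough fold of a 24 h cosine over both diets for the 48 genes, from limma over 36 libraries. The star is Txnrd3 (adjusted p 0.00254), filled points have an unadjusted p under 0.05, and open points do not; Gsta3 has the largest fitted fold and includes 1 library at 115.

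Whether the rhythm itself differed between diets was tested directly. None of the 48 members was called in limma, against 0% of all rows. At an unadjusted p under 0.05 there were 6 of 48 members, against 13.2% of all rows, namely Pgd (0.00399), Sod3 (0.00568), Sod2 (0.0207), Gclm (0.0217), Gstm1 (0.0326) and G6pdx (0.0463), with the unadjusted limma p of each in brackets. Their adjusted p-values were 0.357 to 0.375. Sod2 had a fitted peak at ZT 7.40 ± 2.57 h with a fold of 1.13 on high-fat diet alone, against ZT 16.3 ± 1.17 h with a fold of 1.27 on chow alone. For Gclm the peak was at ZT 8.52 ± 1.84 h with a fold of 1.18 on high-fat diet alone, against ZT 16.8 ± 1.39 h with a fold of 1.21 on chow alone. The high-fat diet fits had unadjusted p-values of 0.352 for Sod2 and 0.146 for Gclm in limma.

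The group means of both genes were highest at ZT 8 and lowest at ZT 20 under high-fat diet. At ZT 8 Gclm was at 42.2, 60.2 and 39.4 under high-fat diet, against 40.9, 37.8 and 40.2 under normal chow, and the highest of these came from high-fat diet replicate 2, the library with the low ribosomal protein sum. At ZT 20 Gclm was at 38.0, 42.7 and 29.9 under high-fat diet, against 44.8, 47.0 and 41.9 under normal chow, and Sod2 was at 101.2, 117 and 65.7 under high-fat diet, against 117, 111 and 112 under normal chow, with high-fat diet replicate 3 the lowest for both genes. The unadjusted p of the difference in rhythm in limma was 0.0515 for Gclm without high-fat diet ZT 8 replicate 2. Without high-fat diet ZT 20 replicate 3 it was 0.0542 for Gclm and 0.0277 for Sod2. The lowest Gclm value of all 36 libraries was 28.1, in normal chow ZT 4 replicate 2. The Gclm peak-to-trough on the log2 scale, high-fat diet minus normal chow, was -0.036 with all libraries. It was 0.067 without that chow library and -0.15 without high-fat diet ZT 8 replicate 2.

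Other genes of the same pathways were not called between diets either. Of a list of 60 genes of glutathione transport and turnover, glutaredoxins, NRF2 control, NADPH supply and related detoxification, 59 were tested, and none was called for diet over all time points in limma, with 3 at an unadjusted p under 0.05 (5.08% of the 59, against 2.56% of all rows). The 5 smallest p-values belonged to Ccs, the copper chaperone of Sod1 (log2 difference -0.11 ± 0.045, SE), Glrx2, a mitochondrial glutaredoxin (-0.067 ± 0.029), Txnip, the thioredoxin-binding inhibitor (0.17 ± 0.075), Chac2, a glutathione-cleaving enzyme (-0.083 ± 0.045), and Maff, a small MAF partner of NRF2 (0.11 ± 0.063). All had an adjusted p of 1. Over both diets 1 of the 59 was called rhythmic (1.69%, against 2.18% of all rows), Idh2, the NADPH-producing isocitrate dehydrogenase of mitochondria, with a fold of 1.19, a peak at ZT 15.9 ± 0.787 h and an adjusted p of 0.0112 in limma. The next were Oplah, which recycles 5-oxoproline (1.21-fold, adjusted p 0.0621), Txnip (1.32-fold, 0.112), Gstcd (1.23-fold, 0.117) and Msrb2, a methionine sulfoxide reductase (1.16-fold, 0.132). An unadjusted p under 0.05 was found for 9 of the 59 (15.3%, against 13.1% of all rows). Of these 9, 6 peaked between ZT 12 and ZT 18 and 0 between ZT 0 and ZT 6, against 470 and 562 of the 1986 such rows in all.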

How the data were processed

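RNA of an SCN-enriched mouse brain region was measured in 36 libraries, 18 on high-fat diet and 18 on normal chow. The deposited values are FPKM per gene, 1 table per diet, made with Trimmomatic, TopHat and Cufflinks on GRCm38 (mm10), per the submitters' processing notes. The headers give no unit; FPKM rests on the values and on Cufflinks being listed. The annotation, the strand setting and any scaling across libraries are not given in the sources used here. The deposited columns sum to 302899 to 432336 and hold 18550 to 19143 rows above 0, and depth in reads is unknown, so no counting interval was computed.

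Each library was rescaled to sum to 1000000, and log2(value + 1) of rows with a mean of at least 1 was fitted with limma 3.58.1 (mean-variance trend) in R 4.3.3. The diets were compared over the day with time as a factor, per time point by contrasts among 12 group means, and by 5 interaction terms of diet and time point. Rhythms were tested with a cosine and a sine of 24 h. Tests with a direction were two-sided. P-values were adjusted over all rows by the Benjamini-Hochberg method and called under 0.05. The scripts were tested on simulated data. A fold or difference on the log2(value + 1) scale understates changes of low genes. Rows were matched by symbol, and 817 rows share a symbol with another row. Locations are from GENCODE M21, and sequences from RefSeq.

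The members, lists and tests were chosen with earlier results of these data known. Members named with full statistics are those called, up to 4 per test with the smallest unadjusted p under 0.05, and 17 fixed names. Alternatives were other scalings, pseudocounts and filters, a replicate block, time as a factor for rhythms, and leaving out single libraries. Libraries whose liver, striatum or meninges markers summed to over 10, 5 or 2 times the median were also left out as sets, an alternative chosen after seeing the data.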

Additional observations from a re-analysis of the deposited data

How the results depend on the processing

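No member was called for diet over all time points, for diet by time point, for a rhythm in a single diet or for a difference in rhythm under any alternative. Left out singly, libraries moved the count called for diet at a time point between 0 and 2 (Txn1 and Gpx4 without high-fat diet ZT 8 replicate 1, Pgd without high-fat diet ZT 16 replicate 1) and the count rhythmic over both diets between 1 and 3. Over all rows the first count ran from 0 to 1100, against 1 with all libraries. The second ran from 265 to 451, against 331. The cause was not tested. Rows called rhythmic under normal chow ran from 27 without the meninges-rich libraries to 258 with median-of-ratios scaling, against 128, and under high-fat diet from 1 to 13, against 11.

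Diet differences near 0 changed sign. Without the liver-rich libraries they were 0.0055 for Hmox1, 0.048 for Cat and 0.0024 for Sod1. Without the striatum-rich ones they were 0.013 for Hmox1, 0.0040 for Sod2 and 0.00059 for Txnrd1, and without the meninges-rich ones 0.014 for Sod2. With single libraries left out the log2 differences ran from -0.031 to 0.022 for Hmox1, -0.054 to 0.037 for Cat, -0.034 to 0.00012 for Sod1, -0.040 to 0.024 for Sod2, -0.071 to 0.011 for Gpx4, -0.046 to 0.034 for Txn1, -0.059 to 0.012 for Gclc and -0.058 to 0.0044 for Gclm.

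The values do not settle whether replicate numbers pair the libraries of the 2 diets. Over 18 pairs of the same time and number the correlations of deviations were -0.276 to 0.319. Their median was 0.103, with 9 over 0.1. For pairs with the same number between any 2 groups the median was 0.025, with 61 of 198 over 0.1. For pairs with other numbers, between any 2 groups, the median was -0.017, with 76 of 396 over 0.1. The replicate block changed no call (0 members for diet, 1 rhythmic over both diets, Txnrd3). Limits are the 3 libraries a group, the unknown depth and single libraries with high markers of other tissues. The difference between diets was least precise for Gsta3, with 95% limits of -0.71 to 0.78.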
